A study of Ovis aries with 10 samples.

Results

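ARHGAP10 encodes a GTPase-activating protein, and 14 of the 8721 circular RNAs (circRNAs) listed in the series carried its name as host gene. They were taken as every circRNA whose host was named exactly ARHGAP10 (gene ID 101107633) with an entry in at least 1 of the 10 libraries, where the smallest count the files list is 2 reads. The name stands on 18 circRNAs of the table, and the other 4 have no entry in these libraries. The gene was chosen by its number of isoforms and junction reads, with earlier results of these data known, so these are given as description. A circRNA is closed by back-splicing, in which a downstream splice donor joins an upstream splice acceptor, and it is counted by the reads that cross that junction. The libraries were 5 from ovariectomized small-tailed Han sheep (OR-STH) and 5 from sham-operated ones (STH), all female, sequenced to study estrogen in muscle growth. The labels name no mutation and no treatment beyond the surgery that differs between the groups. The tissue given is longissimus dorsi, a back muscle, while the cell type given is primary myoblasts with a culture and an estradiol protocol for both groups, so which of these was sequenced is not clear. Neither the age of the sheep nor a separate animal for each library is stated, and p-values therefore reflect variation among libraries, which may be technical.

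ARHGAP10, also called GRAF2, belongs to a small family of proteins that combine a membrane-bending BAR domain, a phosphoinositide-binding PH domain, a RhoGAP domain and an SH3 domain. A GTPase-activating protein speeds the hydrolysis of GTP by a small GTPase and so switches it off. For ARHGAP10 the known substrates are CDC42 and RHOA, which organize actin, and its SH3 domain binds focal adhesion kinases. The related protein ARHGAP26 (GRAF1) is known from mouse and cultured myoblasts to take part in myoblast fusion. Circular RNAs are commonly made from internal exons flanked by long introns and last longer than linear RNA. The reads described here count circles and not ARHGAP10 protein or mRNA.

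The libraries held 39045 to 67061 junction reads in OR-STH and 35731 to 49887 in STH. Of 18 skeletal muscle fiber genes, 14 hosted circRNAs, together 256.2 to 456.4 junction reads per 10000 of the library in OR-STH and 299.9 to 484.2 in STH. Of 9 myoblast and satellite cell genes, 2 hosted circRNAs with 5 reads in all, and PAX7, MYF5, MYOD1 and MYOG had none. Endothelial genes (5 of 8 hosting) held 3.59 to 6.41 reads per 10000 in OR-STH and 3.25 to 7.16 in STH. Smooth muscle and pericyte genes (1 of 6) held 4 reads and adipocyte genes (1 of 5) held 18. None of 7 fibroblast and matrix genes, 5 immune genes or 6 cell cycle genes hosted a circRNA. These counts do not measure cell content, and in bulk samples fewer cells of a type and less RNA per cell cannot be told apart.

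ARHGAP10 circRNAs came from 15 exons or exon-like blocks on the minus strand of chromosome 17, between positions 10215325 and 10395927 of the files' coordinates. Together they held 3456 junction reads, the 7th highest total among 3436 host genes, and 14 host genes had more circRNAs. One circle led. The circRNA novel_circ_0013404 (10276004 to 10304861, 5 exons, 488 bases spliced) had 2214 reads, 64.1% of the gene, and was 12th among all circRNAs of the series. The next, novel_circ_0013421 (10298316 to 10334308, 5 exons, 357 bases), had 365 reads or 10.6%. Among the 65 host genes with at least 10 circRNAs the leading circRNA took a median of 39.2% of reads, with a range of 17.4% to 94.5%, and 11 of these genes exceeded ARHGAP10. STAU2, with 13 circRNAs, reached 77.7%, and ABCC9, with 19, reached 40.3%.

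**Figure D1:**
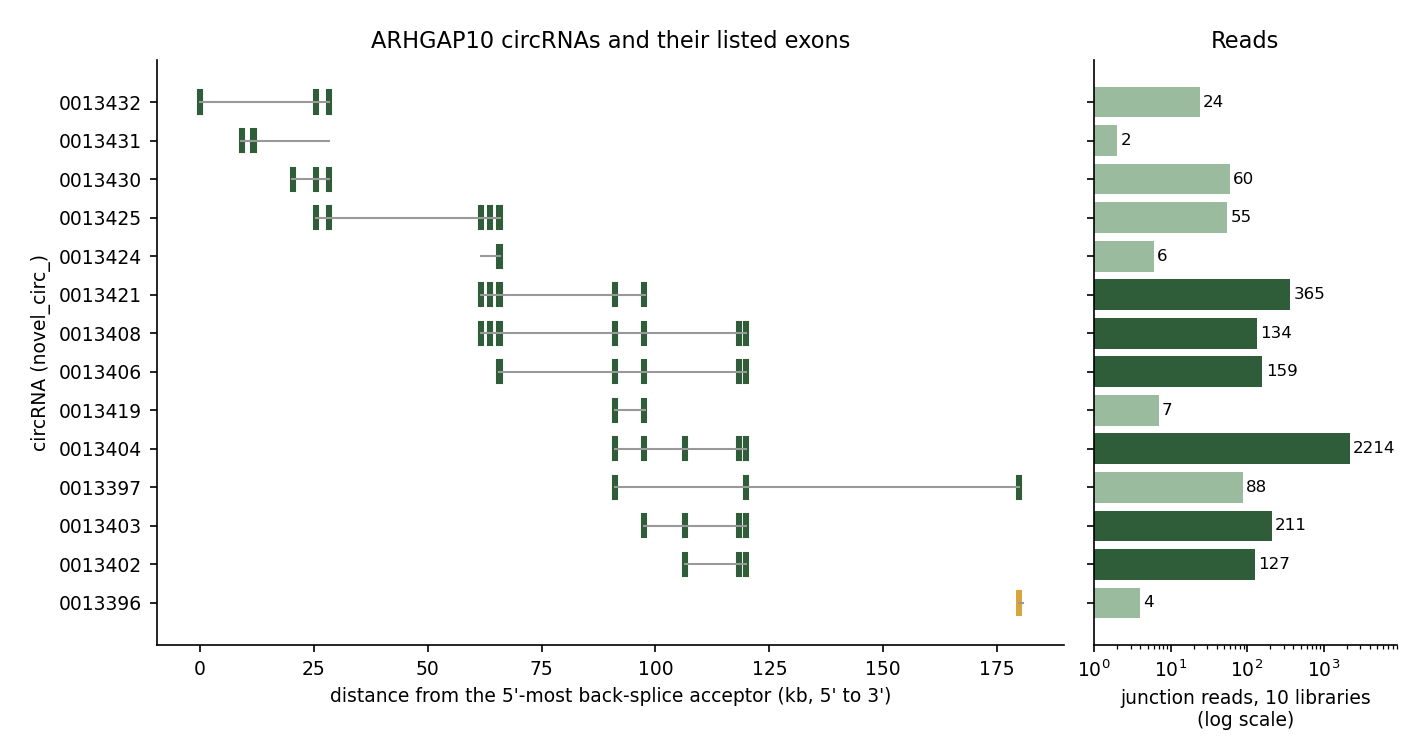
Left, the 14 ARHGAP10 circRNAs drawn 5′ to 3′ as grey lines with their listed exons as blocks (gold for the block annotated as intron, drawn with a minimum width), against the distance in kb from the acceptor of novel_circ_0013432. Right, junction reads summed over 10 libraries on a log axis, dark for the 6 tested circRNAs. The circle novel_circ_0013404 with 2214 reads stands above novel_circ_0013421 with 365, and most circles share their donor with another circle.

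Back-splicing used few donors and more acceptors. The 14 circles drew on 6 donors and 10 acceptors, and 21 of their 91 pairs shared an end, 15 at the donor and 6 at the acceptor. The donor of the 160-base exon at 10276004 served 5 circles and 82.3% of the gene's junction reads. It took 83.3% ± 3.29 of reads in OR-STH and 82.0% ± 5.21 in STH libraries (SD, n = 5 each). The acceptor at 10304861 served 3 circles and 66.8% of reads, with 67.3% ± 4.58 in OR-STH and 66.4% ± 6.62 in STH libraries (SD, n = 5 each). The groups overlapped in the share of both sites.

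The donors joined to 1 acceptor were used unevenly. The acceptor at 10304861 was joined to the donor at 10276004 in 2214 reads, to the more distant donor at 10216068 in 88 (novel_circ_0013397, a span of 88794 bp) and to the nearer one at 10298316 in 7 (novel_circ_0013419). The acceptor at 10334308 was used differently: 365 of its reads joined the donor at 10298316, 134 the donor at 10276004 (novel_circ_0013408) and 6 that at 10330119 (novel_circ_0013424). The same donor at 10276004 therefore led at the acceptor 10304861 and came second at 10334308.

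The leading circle lay between wide gaps, and so did novel_circ_0013408. Downstream of the leading circle's last exon the next exon listed in any of the 14 circles was 59788 bp away, the widest gap of the set. Upstream of its first exon the next was 25257 bp away, the third widest. The downstream gap was the same for all 5 circles of the donor at 10276004. Of these, novel_circ_0013408, with 134 reads, had a wider upstream gap than the leading circle, 33227 bp. Exons found in no circle are not seen in these rows, so the gaps are upper limits of the flanking introns.

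The exon composition listed for 3 longer circles left out exons of the leading one. Described here is the exon of the leading circle with the most reads on circles that span but do not list it. The 59-base exon from 10289346 to 10289404 was listed in novel_circ_0013402, novel_circ_0013403 and novel_circ_0013404, together 2552 reads. It was not listed in novel_circ_0013397, novel_circ_0013406 and novel_circ_0013408, which span it and held 381 reads, 13.0% of the spanning reads. Of these, novel_circ_0013397 (88 reads) also lacked the leading circle's exons that start at 10298316 and 10277531. That share was 13.5% ± 3.51 in OR-STH and 11.2% ± 5.33 in STH libraries (SD, n = 5 each), with overlapping ranges. The files give 1 composition per circle and no reads inside it, so inclusion was not measured directly. In novel_circ_0013396, novel_circ_0013424 and novel_circ_0013431 the listed blocks did not reach both ends, and the block of novel_circ_0013396 (4 reads) was annotated as intron over the same 148 bases that novel_circ_0013397 lists as an exon.

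The question of the study, how ovariectomy bears on muscle RNA, was asked of ARHGAP10 first as a sum. In OR-STH replicates 1 to 5 the gene had 277, 322, 275, 317 and 649 junction reads. In STH replicates 1 to 5 it had 179, 282, 441, 352 and 362. Scaled to a common library size, the sum was 319.3 ± 55.2 normalized reads in OR-STH and 348.4 ± 84.9 in STH libraries (SD, n = 5 each). The groups overlapped, where 0.664% of the 753 host genes tested had groups that did not. The highest value was in STH replicate 3 (474.8) and the lowest in STH replicate 1 (240.0), with OR-STH replicate 5 at 413.0 from the library with the most reads.

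In limma voom across host genes, the log2 fold change of OR-STH over STH was -0.10 ± 0.19 (SE), with a 95% interval from -0.50 to 0.30 and an adjusted p of 0.892. Of 753 host genes tested, 0.00% passed an adjusted p of 0.05 and 5.98% had an unadjusted p under 0.05 in limma voom, with a smallest adjusted p of 0.076. In limma trend also 0 passed, and 40 had an unadjusted p under 0.05. The sum's direction turned with scaling, to 0.03 with library totals alone, a setting that moved the median of all tested host genes to 0.12 from -0.02. It was 0.013 without STH replicate 3.

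The gene's level varied little between libraries of a group. Its within-group SD was 0.299 on the log2 scale of normalized reads plus 1, against a median of 0.585 over the 753 host genes, of which 52 varied less. Among the 63 with at least 1000 reads the median was 0.367 and 19 varied less. Counting error is smaller for abundant genes, and its part in this was not tested.

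Of the 14 circRNAs, 6 passed the filter on low counts, at least 10 scaled reads in at least 5 libraries, and they held 92.9% of the gene's reads. None of the 6 passed the test between the groups in limma voom, where 0.00% of the 738 circRNAs tested passed an adjusted p of 0.05 and 5.69% had an unadjusted p under 0.05. None of the 6 had groups that did not overlap, against 1.36% of the 738. Limma trend also called 0 and gave 41 an unadjusted p under 0.05.

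The leading circle novel_circ_0013404 had 167, 220, 166, 213 and 438 junction reads in OR-STH and 129, 185, 273, 195 and 228 in STH replicates 1 to 5. Normalized reads were 205.5 ± 42.2 in OR-STH and 221.4 ± 47.7 in STH libraries (SD, n = 5 each), with OR-STH replicate 5 and STH replicate 3 highest in their groups. In limma the log2 fold change was -0.09 ± 0.20 (SE), 95% interval from -0.51 to 0.32, adjusted p = 0.939. The sign turned with library totals alone, to 0.061, and without STH replicate 3, to 0.039.

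The other circles from the donor at 10276004 were scarcer and more variable than the leading circle. The shorter novel_circ_0013403 (10276004 to 10298403, 4 exons) had 19, 13, 11, 27 and 27 reads in OR-STH and 25, 17, 22, 35 and 15 in STH replicates 1 to 5. Its normalized reads, 16.9 ± 4.78 in OR-STH and 25.3 ± 8.14 in STH libraries (SD, n = 5 each), overlapped. Limma gave a log2 fold change of -0.53 ± 0.32 (SE), adjusted p = 0.820. The 3-exon circle novel_circ_0013402 (10276004 to 10289404) had 20, 5, 17, 8 and 18 reads in OR-STH and 6, 4, 10, 25 and 14 in STH replicates 1 to 5. Both groups held low and high libraries, and limma estimated a log2 fold change of -0.27 ± 0.52 (SE), adjusted p = 0.939. The sign turned to 0.013 with library totals alone.

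Longer circles from that donor differed most between libraries of the same group. The circle novel_circ_0013406 (10276004 to 10330184, 5 exons) had 9, 32, 19, 10 and 24 reads in OR-STH and 2, 12, 30, 8 and 13 in STH replicates 1 to 5. The groups overlapped, and the estimate from limma was a log2 fold change of 0.31 ± 0.56 (SE), adjusted p = 0.939. It ranged from 0.014 without STH replicate 1 to 0.71 without STH replicate 3. The 7-exon circle novel_circ_0013408 (10276004 to 10334308) had 12, 11, 4, 14 and 30 reads in OR-STH and 11, 28, 7 and 17 in STH replicates 2 to 5, and it was not listed in STH replicate 1. Its normalized reads averaged 11.7 ± 5.11 in OR-STH and 13.5 ± 11.4 in STH libraries (SD, n = 5 each), while limma, on the log scale, gave a log2 fold change of the other sign, 0.33 ± 0.81 (SE), adjusted p = 0.939. Without STH replicate 1 the estimate was -0.24, so no direction was read. Within-group SDs on the log2 scale were 0.987 for novel_circ_0013406 and 1.45 for novel_circ_0013408, against 0.291 for the leading circle and a median of 0.628 over the tested circRNAs. The shorter novel_circ_0013402, with 127 reads in all, was at 0.797, and novel_circ_0013403, with 211, was at 0.430, below that median. The part of low counts, and of the missing entry set to 0 in STH replicate 1, was not tested.

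The second most abundant circle, novel_circ_0013421, uses another donor, at 10298316. It had 34, 16, 34, 24 and 60 reads in OR-STH and 10, 37, 52, 55 and 43 in STH replicates 1 to 5. Normalized reads were 29.1 ± 9.76 in OR-STH and 42.2 ± 17.3 in STH libraries (SD, n = 5 each), and STH replicate 1 had the lowest of all 10. Limma put OR-STH at a log2 fold change of -0.47 ± 0.38 (SE), 95% interval from -1.29 to 0.35, adjusted p = 0.847. Leaving out single libraries moved it between -0.81 (without STH replicate 1) and -0.27 (without OR-STH replicate 2), and it was -0.31 without STH replicate 3 and -0.32 without STH replicate 4, none past the adjusted threshold in limma.

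**Figure D2:**
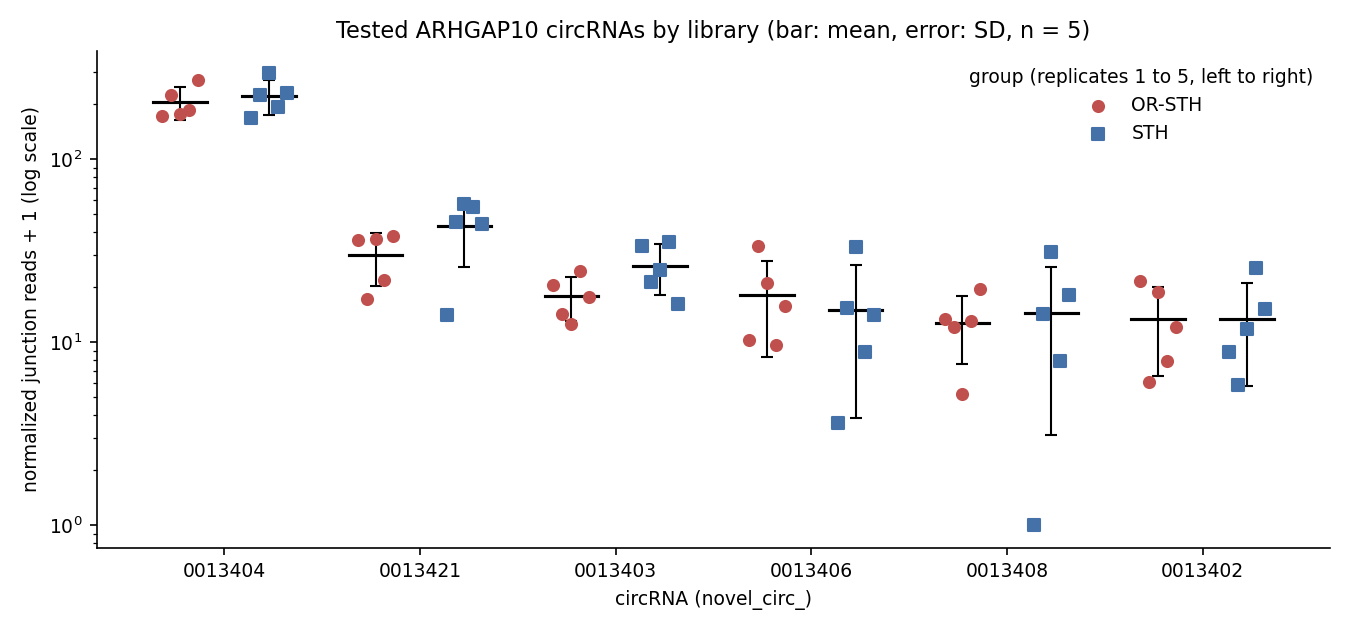
Normalized junction reads plus 1 (log axis) of the 6 tested ARHGAP10 circRNAs in each OR-STH (circles) and STH (squares) library, with the mean and SD of 5. The leading circle lies between 167.9 and 294.2 normalized reads in all 10 libraries, and the groups overlap for all 6 circles.

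**Figure D3:**
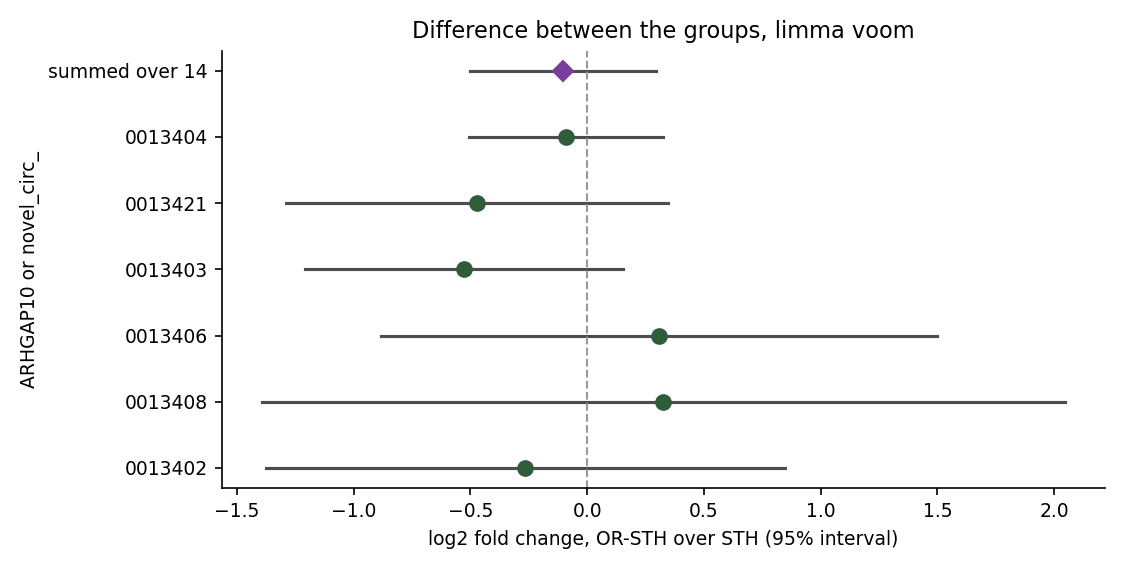
Log2 fold change of OR-STH over STH from limma voom with its 95% interval, for ARHGAP10 summed over its 14 circRNAs (diamond) and for the 6 tested circRNAs. All 7 intervals include 0, from -0.50 to 0.30 for the sum and widest for novel_circ_0013408.

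The 8 circles under the filter held few reads. Of them, 4 were listed in at least 4 libraries and were compared by two-sided exact permutation tests, whose smallest possible p is 0.00794. The long circle novel_circ_0013397 was not listed in OR-STH replicate 1, had 7, 14, 5 and 27 reads in OR-STH replicates 2 to 5, and had 5, 14, 3, 5 and 8 in STH replicates 1 to 5. It averaged 8.59 ± 7.05 normalized reads in OR-STH and 7.92 ± 5.31 in STH libraries (SD, n = 5 each; exact permutation p = 0.873). The difference had no stable sign, as leaving out OR-STH replicate 3 or 5 or STH replicate 3 or 4 turned it.

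Circles from the 5′ exons were scarce, and none passed the test. The circle novel_circ_0013425 (10330119 to 10370446) was listed in 5 OR-STH libraries, with 10, 9, 3, 11 and 4 reads, and in STH replicates 3 to 5, with 3, 5 and 10. The circle novel_circ_0013430 (10367536 to 10375627) was listed in 5 OR-STH libraries, with 6, 4, 4, 5 and 21 reads, and in STH replicates 3 to 5, with 5, 5 and 10. Both lacked an entry in STH replicates 1 and 2, the STH libraries with the fewest junction reads. For novel_circ_0013425 the normalized means were 6.93 ± 3.78 in OR-STH and 3.65 ± 4.18 in STH (SD, n = 5 each; exact permutation p = 0.238), and for novel_circ_0013430 the exact permutation p was 0.437. The circle novel_circ_0013432 (10367536 to 10395927) had 3 reads each in OR-STH replicates 2 and 3, and 2, 7, 5 and 4 in STH replicates 2 to 5 (exact permutation p = 0.135). Without STH replicate 1, which did not list it, that exact p was 0.0476, and without STH replicate 3 it was 0.270. The difference was -2.54 normalized reads with all libraries, -3.48 without STH replicate 1 and -1.60 without STH replicate 3. Adjusted over the 4 circles, the smallest Benjamini-Hochberg exact p was 0.476.

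The remaining 4 had 2 to 7 reads in all. STH libraries alone listed novel_circ_0013396 (4 reads, replicate 4), novel_circ_0013419 (4 and 3 reads, replicates 3 and 4) and novel_circ_0013431 (2 reads, replicate 1). The circle novel_circ_0013424 had 2 reads in OR-STH replicate 2 and 4 in STH replicate 3. Since no count below 2 reads is listed, a circle without an entry may still have had a read, and no direction was read from these 4. In the authors' deposited table, the smallest unadjusted p among the 14 was 0.149, for novel_circ_0013403. The share of all circRNAs under 0.05 in that table was not taken here, so this is given as a value only.

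Isoform use, free of library scaling, did not separate the groups. The leading circle took 60.3%, 68.3%, 60.4%, 67.2% and 67.5% of the gene's junction reads in OR-STH replicates 1 to 5. In STH replicates 1 to 5 it took 72.1%, 65.6%, 61.9%, 55.4% and 63.0%. The highest and the lowest share were both in STH libraries, and their exact binomial 95% intervals, 64.9% to 78.5% in STH replicate 1 and 50.0% to 60.7% in STH replicate 4, did not overlap. Such intervals cover counting error only. The means were 64.7% ± 4.04 in OR-STH and 63.6% ± 6.05 in STH libraries (SD, n = 5 each; exact permutation p = 0.714).

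**Figure D4:**
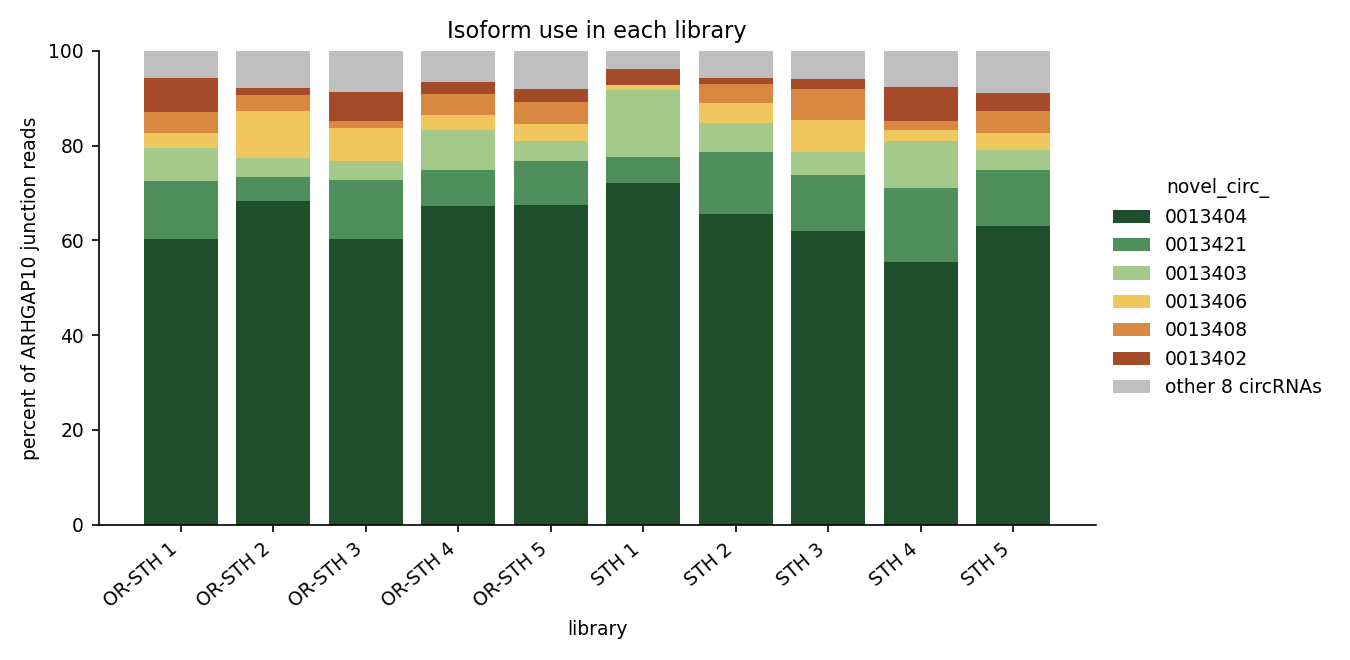
Percent of ARHGAP10 junction reads on each of the 6 tested circRNAs and on the other 8 together, in OR-STH replicates 1 to 5 and STH replicates 1 to 5. The leading circle takes 55.4% to 72.1% in every library.

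The number of ARHGAP10 circles listed was 8, 11, 10, 9 and 9 in OR-STH replicates 1 to 5 and 7, 8, 12, 12 and 10 in STH replicates 1 to 5. The means, 9.40 ± 1.14 in OR-STH and 9.80 ± 2.28 in STH (SD, n = 5 each), lay closer together than libraries of 1 group (exact permutation p = 0.857). STH replicate 1, with the fewest ARHGAP10 circles, also listed the fewest circRNAs of any library, 2559. With every library thinned to the smallest, the difference between the groups was -0.36 circles (exact permutation p = 0.738).

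The files also give non-junction reads for each circle, which the sources used here do not define, so they are described as deposited. They are recorded only where a circle is listed. The leading circle had about as many of them as junction reads. It had 222, 218, 176, 308 and 253 non-junction reads in OR-STH replicates 1 to 5 and 225, 242, 326, 264 and 243 in STH replicates 1 to 5. Its median was 1.25 non-junction reads per junction read, against a median of 6.54 over the 605 tested circRNAs listed in all libraries, of which 63 had a smaller value. The other 5 tested ARHGAP10 circles had medians from 10.8 (novel_circ_0013421) to 39.8 (novel_circ_0013402).

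Non-junction reads were compared between circles that share an end. Among the 5 circles that share the donor at 10276004, those that use the 2 nearest acceptors had the most. Their median non-junction reads were 379 for novel_circ_0013402 and 330.5 for novel_circ_0013403, both above the leading circle (242.5) in 10 of 10 libraries. The leading circle, with 2214 junction reads, differed less from novel_circ_0013406, with 159 junction reads and a median of 222.5 non-junction reads, and was the higher in 7 of 10 libraries. At the shared acceptor 10334308, novel_circ_0013421 exceeded novel_circ_0013408 in 9 of 9 libraries that list both, by a median of 213 reads. Circles that share an end may count the same non-junction reads, so sums over circles are not counts of linear RNA.

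Over the 6 tested circles there were 5.94, 5.65, 4.92, 7.14 and 2.82 non-junction reads per junction read in OR-STH replicates 1 to 5 and 7.94, 7.09, 5.73, 6.05 and 6.19 in STH replicates 1 to 5. STH replicate 1 did not list novel_circ_0013408, so its value, the highest of all 10, rests on the other tested circles. The means were 5.29 ± 1.60 in OR-STH and 6.60 ± 0.902 in STH libraries (SD, n = 5 each; exact permutation p = 0.135). Adjusted over the 3 gene-level measures, the leading share, the number listed and this ratio, the smallest Benjamini-Hochberg exact p was 0.405. OR-STH replicate 5 was the lowest of all 10. Without it the difference was -0.686, against -1.30 with all libraries, and without OR-STH replicate 4 it was -1.77 with an exact permutation p of 0.0238. Over all listed circles, a set that differs between libraries, the difference was -2.31 with an exact permutation p of 0.0476.

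The same measure was taken over whole libraries, with no test. Over all circRNAs of a library there were 51.0 ± 8.08 non-junction reads per junction read in OR-STH and 65.6 ± 11.7 in STH (SD, n = 5 each), and the groups overlapped. Pooled over the tested circRNAs the values were 13.3 ± 3.50 in OR-STH and 13.2 ± 1.88 in STH (SD, n = 5 each). Of the 605 tested circRNAs listed everywhere, 70.4% had a lower mean ratio in OR-STH, and in 2.31% the groups did not overlap. The part of this library-wide measure in the ARHGAP10 ratio was not tested.

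**Figure D5:**
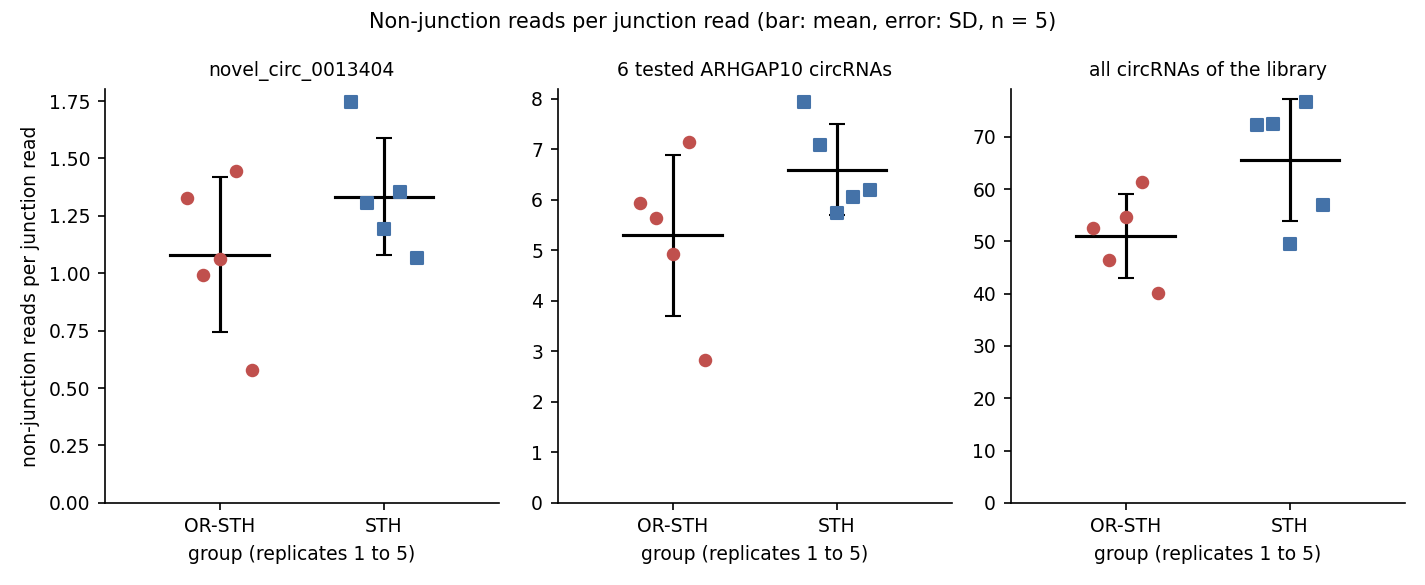
Non-junction reads per junction read by library, with mean and SD of 5, in OR-STH and STH for novel_circ_0013404, for the 6 tested ARHGAP10 circRNAs and for all circRNAs of the library. OR-STH replicate 5 is lowest in each panel, and the mean is lower in OR-STH in all 3. The value of STH replicate 1 for the tested circRNAs lacks novel_circ_0013408, which that library did not list.

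Circles of other genes of the pathway were counted from lists of known members. Of the GRAF family, ARHGAP42 hosted no circRNA. ARHGAP26 had 3 circRNAs, at 9.43 ± 2.52 normalized reads in OR-STH and 5.29 ± 3.34 in STH libraries (SD, n = 5 each). ARHGAP26 was under the filter and was not tested. Together, 6 of 14 RhoGAPs of the BAR-domain type hosted circRNAs, and ARHGAP10 held 3456 of their 3711 reads. The other tested one was ARHGAP29, at 13.6 ± 6.88 normalized reads in OR-STH and 6.63 ± 3.65 in STH libraries (SD, n = 5 each). Limma estimated its log2 fold change at 0.85 ± 0.88 (SE), adjusted p = 0.855. With ARHGAP10 itself at -0.10, the median of these 2 log2 fold changes was their midpoint, 0.37, beside -0.02 over all tested host genes. It does not describe the list.

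None of the other lists had a host gene past an adjusted p of 0.05 in limma voom. Of 47 other RhoGAPs, 16 hosted circRNAs and 5 were tested, 2 with a higher and 3 with a lower estimate in OR-STH and a median log2 fold change of -0.27. FAM13B was at 0.45 ± 0.23 (SE) and ARHGAP6, a RhoA-directed GAP, at -0.70 ± 0.44. Of 51 RhoGEFs, which switch such GTPases on, 26 hosted circRNAs and 8 were tested, 5 higher and 3 lower, with a median of 0.22. ARHGEF7, which encodes the PAK-interacting exchange factor beta-PIX, had 20.8 ± 6.01 normalized reads in OR-STH and 42.8 ± 16.9 in STH libraries (SD, n = 5 each). Its estimate was a log2 fold change of -0.92 ± 0.35 (limma unadjusted p = 0.0170, adjusted p = 0.714). Its relative ARHGEF6 was at -1.07 ± 0.57.

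Of 37 effectors and partners 20 hosted circRNAs and 6 were tested, 4 higher and 2 lower, with a median of 0.12. PTK2, which encodes focal adhesion kinase, a binding partner of ARHGAP10, was at 0.27 ± 0.27 and the RhoA effector kinase ROCK2 at -0.37 ± 0.47. In these 4 lists of the pathway, an unadjusted p under 0.05 was found for ARHGEF7 and no other host, beside the 5.98% of all tested host genes. Of the marker lists, fiber genes had 8 tested hosts, 2 higher and 6 lower, with a median of -0.36, TTN, the giant sarcomere protein gene, at -0.42 ± 0.19 (limma unadjusted p = 0.0367, adjusted p = 0.760) and the dystrophin gene DMD at -0.46 ± 0.36. The tested endothelial host FLT1, which encodes a VEGF receptor, was at -0.62 ± 0.46, and the other marker lists had none tested.

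The host genes whose level ran most nearly parallel to ARHGAP10 were found by the SD, over the 10 libraries, of the log2 ratio of their normalized reads to those of ARHGAP10. The smallest of 752 values were those of RAD51C, a recombination gene (0.231), the small GTPase gene RAB28 (0.232), the centrosome gene CEP120 (0.252), the ubiquitin ligase gene HERC4 (0.252) and the deubiquitinase gene USP13 (0.255), against a median of 0.664. This measure favours abundant genes with steady counts. Their log2 fold changes ran from -0.12 ± 0.20 (SE) for CEP120 to 0.10 ± 0.20 for USP13. Values near that of ARHGAP10 follow from the way these hosts were chosen.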

How the data were processed

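Per the labels' protocols, a directional kit was used. Per the submitters' processing notes, HISAT2 was among the tools. Not given in the sources used here are the genome build, the annotation and the program that called circRNAs. In the deposited table the junction and non-junction read counts are packed into comma-separated lists with sample names. The file holds 11297 circRNAs, of which 8721 have an entry in the series, and 10 other sample names were not used. A second table holds, per the file headers, the authors' group means of read signal, a log2 fold change of STH over OR-STH, and p-values. Starts were counted from 1. Chromosome 17 comes from the host's entry in a RefSeq gene table (ARS-UI_Ramb_v3.0), whose chromosomes fit 10923 of 10925 circRNAs, and none of its coordinates were used. No genome sequence was used here.

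Missing entries were set to 0. Because counts are packed, limma voom (limma 3.58.1, R 4.3.3, statmod 1.5.0) was fitted to all circRNAs, or host sums, with at least 10 reads scaled to the median library in 5 libraries and 15 in total. Sizes were trimmed means of M values (30% and 5% trimmed), variances robust, p-values adjusted by Benjamini-Hochberg, threshold 0.05. Normalized reads are reads over relative library size. Single values had two-sided exact permutation tests over 252 relabellings (Python 3.11.15, numpy 2.4.6). Functions were tested on simulated data. Named were all members, tabulated GRAF relatives, the 2 tested hosts with the smallest p per list and the 5 most parallel hosts. Members, lists and tests were chosen with earlier results of these data known. Alternatives covered scaling, filters, variance models, a replicate block and leaving out each library. Replicate numbers were not taken as pairs: same-numbered libraries deviated together with correlations of -0.11 to 0.185. Some results of the pathway lists are not reported here.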

Additional observations from a re-analysis of the deposited data

Results flagged for a closer look

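Of 42 groups of 5 values, 7 had a library far from the other 4, where chance gives about 1 in 20 for normally spread values. The library of OR-STH replicate 5 was the deepest at 67061 junction reads, against 39045 to 46968 in OR-STH replicates 1 to 4. That of STH replicate 1 had 2559 circRNAs, against 3273 to 3483 in STH replicates 2 to 5. The circle novel_circ_0013430 had 13.0 normalized reads in OR-STH replicate 5, against 4.07 to 6.20 in the others.

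The other 4 cases are circles listed in 1 library of a group, which stand apart by construction. Normalized reads were 3.94 for novel_circ_0013396 in STH replicate 4, 2.03 for novel_circ_0013424 in OR-STH replicate 2 and 4.31 in STH replicate 3, and 2.60 for novel_circ_0013431 in STH replicate 1.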

How the results depend on the processing

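No ARHGAP10 circRNA, nor their sum, passed an adjusted p of 0.05 in any alternative of the limma fit. Over the whole table, 4 of 2690 circRNAs were called when 5 libraries with 2 reads or more sufficed, and 30 of 8721 with no filter beyond 1 read. With the replicate number as a block 3 of 738 were called, and 0 whichever library was left out. For host sums 2 of 1790, 7 of 3436 and 1 of 753 were called under these 3 settings. Without single libraries 0 to 1 were called, the 1 without OR-STH replicate 5 or without STH replicate 4. The log2 fold change of the ARHGAP10 sum was 0.030 with library totals alone, -0.11 in the replicate block, and -0.22 to 0.013 without single libraries, turning without STH replicate 3.

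Of the 6 tested circles, novel_circ_0013403, novel_circ_0013406 and novel_circ_0013421 kept their sign in all 18 alternatives. The log2 fold change of novel_circ_0013403 was -0.70 to -0.36 over them. The remaining tested circles changed sign in some alternatives. The circle novel_circ_0013404 was at 0.061 with library totals and 0.091 with no filter beyond 1 read, and at -0.19 to 0.039 without single libraries, turning without STH replicate 3. The circle novel_circ_0013402 was at 0.013 with library totals, 0.014 with no filter and 0.0089 in limma trend, and fell under the filter in 5 of 10 fits without a library. The circle novel_circ_0013408 was at -0.31 in the replicate block and at -0.24 to 0.86 without single libraries. The cause of these turns was not tested.

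Without single libraries the difference in the leading share was -0.908 to 3.26 percentage points, turning without STH replicate 4, and that in listed circles -1.10 to 0.15, turning without STH replicate 3 or 4. For novel_circ_0013397 it was -1.36 to 2.91 normalized reads. The difference in non-junction reads per junction read was -2.31 over all listed circles, with an exact permutation p of 0.0476, where the set of circles differs between libraries. It was -1.32 over the 5 circles listed in all libraries, a setting chosen after seeing the data, and -1.77 to -0.686 without single libraries. Same-numbered libraries were not shown to be pairs. Paired by number, the exact sign-flip p of the ratio was 0.188, and in deviations from the group means 3 of 10 correlated best with their own number. Counts of 2 to 30 reads limit the scarcer circles to large changes.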
